A study of Mus musculus with 39 samples.

Results

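The lungs of mice fed permethrin for 14 days were compared with those of mice fed permethrin for 7 days. The arrays were chosen by their labels: 9 lungs at 14 days (5 that ate 5000 ppm, 4 that ate 10000 ppm) and 10 lungs at 7 days (5 for each dose), so 19 of the 39 arrays of the series. Every animal was a female of the outbred strain Crlj:CD1(ICR), bought at 9 weeks of age and quarantined for 7 days, and each lung was measured on its own Affymetrix array. The diet was powdered and carried permethrin at 5000 or 10000 ppm. The other groups ate the same kind of diet with nothing added (control) or with isoniazid at 2500 ppm, a drug that the labels use as a positive control for tumours, with 5 lungs at each time. Animals were 11 weeks old in the 7-day groups and 12 weeks old in the 14-day groups, so age, duration and any difference in the day of tissue handling cannot be told apart within permethrin. The control and isoniazid lungs pass through the same interval, and their changes are therefore given beside those of permethrin.

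Permethrin is a pyrethroid insecticide that holds voltage-gated sodium channels open. Foreign compounds of this kind are cleared in lung mainly by airway and alveolar cells, which carry oxidizing and conjugating enzymes, many of them under the transcription factor NRF2. Most RNA of a whole lung comes from epithelium, endothelium, stroma and resident immune cells, and in such bulk tissue fewer cells of a type and less RNA per cell cannot be told apart.

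Lung markers were present. The surfactant protein gene Sftpc, the alveolar type 1 gene Ager and the club cell gene Scgb1a1 lay in the top percentile of probe sets. These ranks are by mean signal over all 39 arrays. The ciliated cell genes Foxj1 and Dnah5 ranked lower, at percentiles 79.2 and 49.5, as did the macrophage gene Marco at 66.5. On permethrin arrays, cardiac muscle genes were also detected, with the atrial Myl7 at a median log2 signal of 10.51 and Myh6 at 10.58. Liver and fat genes (Alb 7.81, Adipoq 8.16) varied between these lungs. The source of the cardiac, liver and fat signals was not tested. The Gapdh 3'/5' log2 ratio, which compares probe sets at both ends of the transcript, was above 0.7 on 7 of the 39 arrays, all at 14 days and 3 of them with permethrin (replicates 4 and 5 at 5000 ppm, replicate 3 at 10000 ppm). Each group's number of arrays limits the precision.

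Over the mean of both doses, 181 of 13020 genes passed an adjusted p of 0.05 in limma, 97 higher and 84 lower at 14 days. That is 1.39% of the genes tested, 0.745% higher and 0.645% lower. The changes were small, with a median log2 change of 0.38 for the risen and -0.41 for the fallen genes, against 0.03 for all genes. The count was unstable. With each array centred on its median in place of quantile normalization no gene passed in limma (1495 at an unadjusted p under 0.05, against 2424 or 18.6%), and with the Gapdh ratio as a covariate 38 passed. Leaving out 1 lung gave between 5 and 523 genes. At 14 days the count was 24, 5, 51 and 523 without replicate 1, 2, 3 or 4 of 10000 ppm. For 5000 ppm at 14 days it was 31, 156, 247, 103 and 95 without replicate 1, 2, 3, 4 or 5. At 7 days it was 63, 161, 108, 91 and 79 without replicate 1, 2, 3, 4 or 5 of 5000 ppm. For 10000 ppm at 7 days it was 75, 78, 100, 81 and 162 without replicate 1, 2, 3, 4 or 5. With the 19 permethrin arrays alone and dose as an added term the count was 403, of which 161 were among the 181.

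Neither dose by itself gave a gene past the threshold in limma. At 5000 ppm 1420 genes had an unadjusted p under 0.05 (10.9%), and at 10000 ppm 1334 (10.2%). The change from 7 to 14 days differed between the doses for no gene past the limma threshold (341 unadjusted, 2.62%). Across the 13020 genes the changes at the 2 doses, which share no animals, had a Pearson correlation of 0.35 and the same sign in 66.7%, as a description, since genes are not independent replicates.

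Genes of the vessel wall and stroma were among those that fell. Cdh5 encodes VE-cadherin, which joins endothelial cells at their contacts. At 7 days its log2 signal was between 10.92 and 11.22 in the 10 permethrin lungs, with a median of 11.07, and at 14 days between 10.32 and 11.03, with a median of 10.67. All 9 lungs at 14 days lay below the 7-day mean, and the groups overlapped through replicate 4 of 10000 ppm at 11.03 and through 7-day lungs near 10.92. The log2 change of Cdh5 was -0.49 with an SE of 0.09 (adjusted p = 0.00639), or 1.40-fold lower, and it lost its call under 2 of 34 alternatives. The change was -0.31 in control and -0.32 in isoniazid lungs.

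Cxcl12, a chemokine of stromal and endothelial cells that guides leukocytes, fell by 0.60 (SE 0.14, adjusted p = 0.0277). Its log2 signal ran from 9.07 to 9.99 at 7 days and from 8.16 to 9.62 at 14 days, and the 4 lungs at 10000 ppm for 14 days were at 8.87, 8.72, 8.16 and 9.50. A second Cxcl12 probe set, with a mean log2 signal of 8.17, changed by only -0.11 (SE 0.11), so the size of the fall rests on the brighter one. The endothelial transcription factor Erg fell by 0.66 (SE 0.17, adjusted p = 0.0444), a call lost under 21 of 34 alternatives. Postn, which encodes the matrix protein periostin, fell by 0.44 (SE 0.10, adjusted p = 0.024), with 8 of 9 lungs below the 7-day mean. In control lungs the means of Cxcl12 (9.75 to 9.28), Erg (8.24 to 7.71) and Postn (10.74 to 10.36) fell too. Their isoniazid means were also lower at 14 days.

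Of 24 endothelial genes tested, 1 passed (Cdh5, lower) and the median change was -0.11, and of 33 extracellular matrix and fibroblast genes 1 passed (Postn, lower) with a median of -0.27. Among all genes 0.645% passed as lower. At an unadjusted p under 0.05, 7 endothelial genes were lower and 3 higher, and 12 matrix genes were lower and none higher, against 7.83% lower and 10.8% higher over all genes. The matrix median was -0.38 in control and -0.26 in isoniazid lungs, and without the 7 arrays of high Gapdh ratio the permethrin median was -0.08.

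Channels and receptors of the cell surface were also among the 12 largest falls. Piezo2, a mechanically gated ion channel, fell by 0.90 (SE 0.21, adjusted p = 0.0294), from a median log2 signal of 5.97 at 7 days to 5.04 at 14 days. Pcdh7, a protocadherin, fell by 0.89 (SE 0.21), Kcna2, a voltage-gated potassium channel, by 0.72 (SE 0.18) and Epha4, an ephrin receptor, by 0.58 (SE 0.16). All 9 lungs at 14 days were below the 7-day mean for Piezo2, Pcdh7, Kcna2 and Epha4, and the ranges overlapped. The call was lost under 18 of 34 alternatives for Kcna2 and 23 for Epha4, and under 8 of 34 for Piezo2 and 9 of 33 for Pcdh7. A dimmer probe set of Piezo2 changed by 0.02. In control lungs the mean log2 signal fell from 5.27 to 4.16 for Pcdh7 and from 6.09 to 5.27 for Kcna2. It fell there from 5.93 to 5.21 for Piezo2 and from 6.02 to 5.50 for Epha4. The isoniazid means of these genes were lower at 14 days too. Scn7a, a sodium channel of the voltage-gated family that senses salt, fell by 0.46 (SE 0.12, adjusted p = 0.0404). At 14 days 8 of 9 lungs were below its 7-day mean. Of 14 voltage-gated sodium channels listed, 5 were tested, and Scn7a alone passed, against 0.645% lower among all genes. Its call was lost under 21 of 34 alternatives. Its other probe sets past the filter changed by -0.91 and -0.82. The median of the 5 was -0.43, or -0.23 without the 7 arrays of high Gapdh ratio and -0.21 with dim probe sets kept in. The Scn7a change was -0.29 in control and -0.02 in isoniazid lungs.

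Some regulators of transcription were among the falls, as others were among the rises. Gtf2a1, which encodes a subunit of the general factor TFIIA, fell by 0.60 (SE 0.14, adjusted p = 0.0265), with log2 signals of 7.24 to 7.83 at 7 days and 6.39 to 7.31 at 14 days. Nfib, a nuclear factor that lung maturation needs, fell by 0.55 (SE 0.12, adjusted p = 0.0233). All 9 lungs at 14 days were below the 7-day mean of Nfib. Zbtb20 (-0.59, SE 0.15), a zinc finger repressor, and Ski (-0.58, SE 0.16), a repressor in TGF-beta signalling, passed as well, as did the lipid carrier Pitpnc1 (-0.56, SE 0.13) and the X-linked Armcx4 (-0.83, SE 0.22). The calls of Zbtb20, Ski and Armcx4 were lost under 21, 23 and 20 of 34 alternatives, those of Gtf2a1, Nfib and Pitpnc1 under 5, 6 and 6. A second bright probe set of Ski changed by -0.03. A dimmer probe set of Gtf2a1 changed by 0.03. In control lungs the mean log2 signal fell for Zbtb20 (9.99 to 9.14), Nfib (10.27 to 9.85) and Gtf2a1 (7.52 to 7.15). Control means of Ski (8.66 to 8.29), Pitpnc1 (8.98 to 8.42) and Armcx4 (6.95 to 6.54) fell as well. Isoniazid means fell for each of these genes but Pitpnc1 (8.30 to 8.36).

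The largest rise in permethrin lungs was that of Gm9946, a predicted gene, at 1.33 (SE 0.33, adjusted p = 0.0382), from a median log2 signal of 3.15 to one of 4.38. Its call was lost under 17 of 33 alternatives, and its control change was -0.45. Its isoniazid mean rose from 3.539 to 4.2. Gm13648, also predicted, rose by 0.97 (SE 0.26), and Zfp420, a zinc finger gene, by 0.76 (SE 0.18), with calls lost under 22 and 7 of 33. The mean of Gm13648 rose in control (3.793 to 4.704) and isoniazid lungs (4.036 to 4.929) too. That of Zfp420 moved little in control (4.303 to 4.321) and rose in isoniazid lungs (3.787 to 4.534). All 3 genes were dim beside the filter's mean log2 signal of 3.43. Other, dimmer probe sets went the other way for Zfp420 (-0.48), Shh (-0.20), Adamts10 (-0.25) and Ttll11 (-0.16), and among the falls for Pcdh7 (0.94) and Kcna2 (0.19). Of these only that of Zfp420 was past the filter. Further probe sets past the filter changed by -0.50 for Pcdh7, -0.68 for Kcna2 and 0.025 for Ttll11.

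Shh, the secreted hedgehog ligand that shapes airway epithelium, rose by 0.85 (SE 0.20, adjusted p = 0.0288), with a change of 0.31 at 5000 ppm and 1.40 at 10000 ppm. The 5 lungs at 5000 ppm for 14 days were close together, from 9.20 to 9.31, while those at 7 days ran from 7.74 to 9.88. At 10000 ppm the 14-day lungs were at 9.71, 9.65, 7.95 and 9.75 and the 7-day lungs between 7.56 and 8.23. Replicate 3 of 10000 ppm thus lay with the 7-day lungs. The Shh change was 0.24 in control and 0.19 in isoniazid lungs, and the difference from control (0.61) did not pass.

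Adamts10, a protease-like protein of elastic microfibrils, rose by 0.78 (SE 0.15, adjusted p = 0.0132), from a median log2 signal of 6.87 at 7 days to 7.64 at 14 days with overlapping ranges, and lost its call under 3 of 34 alternatives. Its change was 0.79 in control and 0.67 in isoniazid lungs. Rxrb, a retinoid X receptor, rose by 0.62 (SE 0.17), Tsen54, a subunit of the tRNA splicing enzyme, by 0.62 (SE 0.16), and Erdr1 by 0.67 (SE 0.18). The uncharacterized 1810019D21Rik rose by 0.74 (SE 0.16), and Znrd1as, an antisense transcript, by 0.60 (SE 0.15). The motor of cilia Dnah2 (0.70, SE 0.18) and the tubulin-modifying enzyme Ttll11 (0.67, SE 0.15) also passed. Control means rose for Rxrb (7.997 to 8.385), Tsen54 (4.867 to 5.376), 1810019D21Rik (6.877 to 7.293) and Znrd1as (4.876 to 5.088). They moved little for Dnah2 (4.906 to 4.942), Ttll11 (4.619 to 4.717) and Erdr1 (9.637 to 9.586). Isoniazid means rose for Rxrb (7.824 to 8.284), Tsen54 (4.44 to 5.191), 1810019D21Rik (6.747 to 7.391) and Ttll11 (4.448 to 4.86). In those lungs Erdr1 went from 9.376 to 9.584, Dnah2 from 5.229 to 5.269, and Znrd1as fell from 5.062 to 4.906. Of 34 alternatives the call was lost under 21 for Rxrb, 22 for Erdr1 and 6 for 1810019D21Rik, and of 33 under 21 for Tsen54, 21 for Znrd1as, 20 for Dnah2 and 8 for Ttll11. Of the 32 ciliated cell genes tested none passed in limma, 26 were above 0 (56.1% of all genes) and 9 were higher at an unadjusted p under 0.05 (10.8% of all genes). The median of that list was 0.23 in permethrin, 0.00 in control and -0.12 in isoniazid lungs.

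Among the 4 genes of smallest p were Dpp9, a dipeptidyl peptidase, and Arrdc1, an arrestin-domain protein, both higher, and Lrrc58, lower, with Cdh5 the other. The Dpp9 log2 signal was between 7.18 and 7.47 at 7 days and between 7.56 and 7.85 at 14 days, so the permethrin groups did not overlap. It rose by 0.41 (SE 0.07, adjusted p = 0.00623), with 0.26 in control and 0.38 in isoniazid lungs. Phlda3, a p53 target that restrains Akt signalling, did not overlap either (7.06 to 7.61 at 7 days, 7.69 to 7.93 at 14 days) and rose by 0.39 (SE 0.10, adjusted p = 0.0351). Trp53inp1, another p53 target, fell by 0.42 (SE 0.09, adjusted p = 0.0241), and these were the 2 of 17 p53 targets past the threshold, against 1.39% of all genes. In control lungs the mean of Phlda3 rose from 7.35 to 7.56 and that of Trp53inp1 fell from 9.88 to 9.54. Isoniazid means moved in the same directions. Of the 181 genes, 8 risen and 6 fallen ones had no overlap between the 9 and 10 lungs. Over all genes the shares without overlap were 0.0922% higher and 0.0614% lower. The same lungs chose the 181 genes, so a larger share among them was fixed by that choice.

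**Figure D1:**
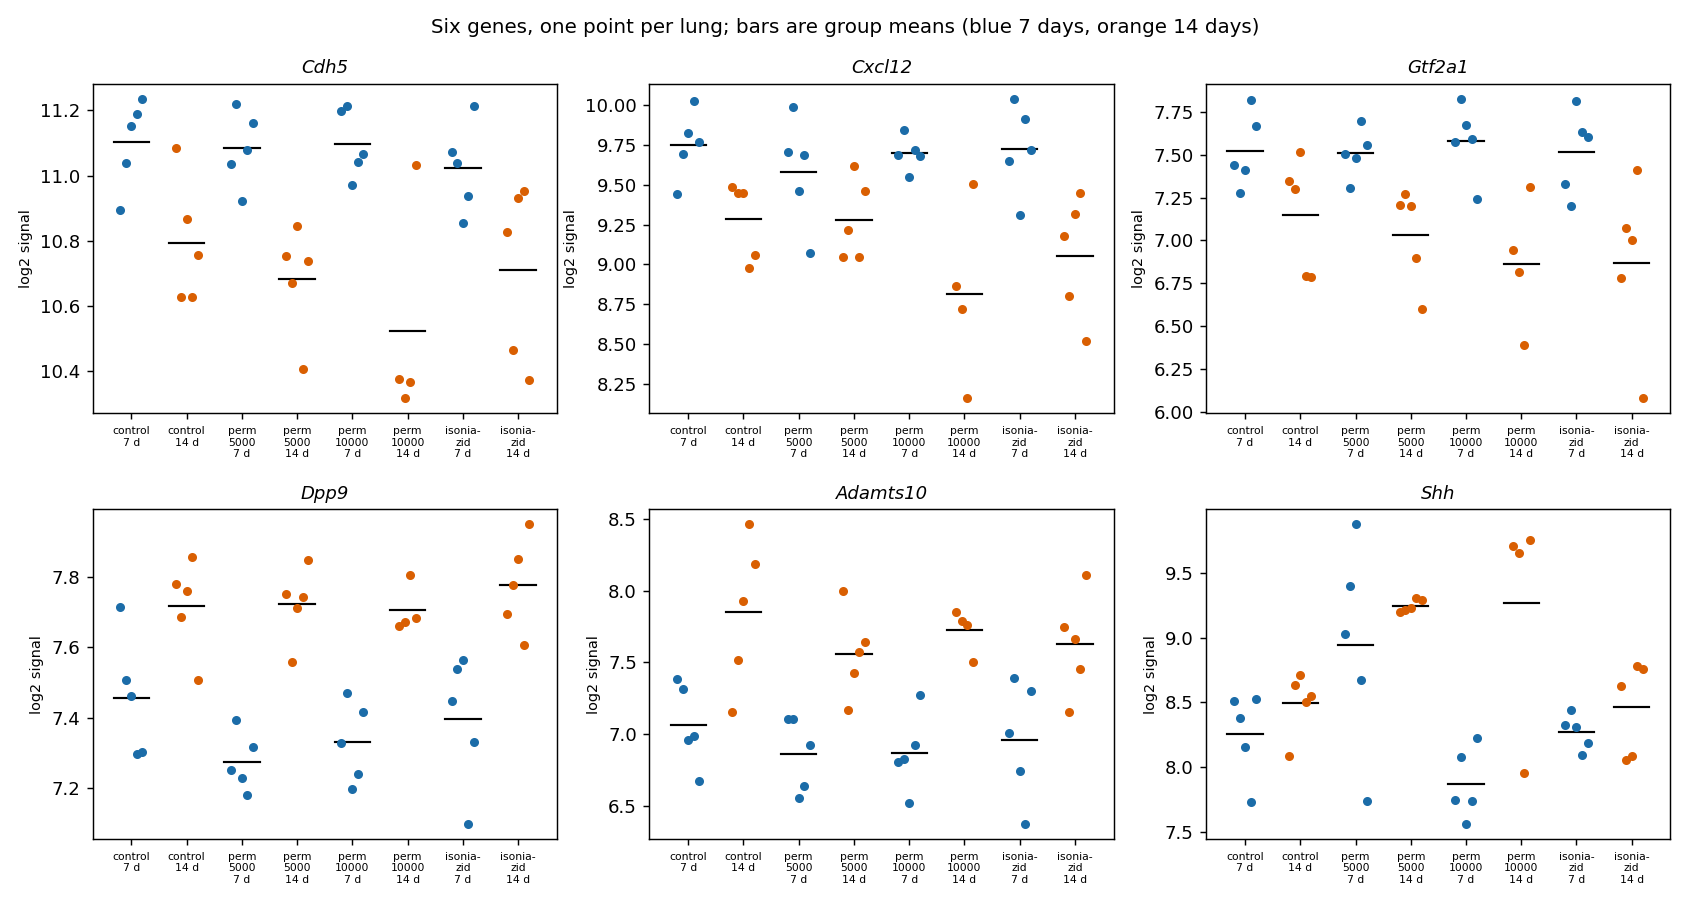
Log2 signal of 6 genes in every lung (vertical axis) by group (horizontal axis), with 1 point a lung and bars at group means. Cdh5, Cxcl12 and Gtf2a1 sit lower at 14 days and Dpp9 and Adamts10 higher, in control and isoniazid lungs as in permethrin lungs, while Shh stands at 7.95 in 1 lung at 10000 ppm for 14 days.

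Lungs of mice fed no permethrin moved the same way. Control lungs and permethrin lungs share no arrays, and control arrays played no part in choosing the 181 genes beyond the common normalization, filter and estimate of spread. In control lungs 95.9% of the 97 risen genes were above 0 (53.8% of all genes), with a median of 0.26. All 84 fallen genes were below 0 there (46.2% of all genes), with a median of -0.34. In isoniazid lungs 99.0% of the risen genes were above 0 (49.0% of all genes), with a median of 0.29, and 95.2% of the fallen ones were below 0 (51.0% of all genes), with a median of -0.30. Over all 13020 genes the permethrin change had the sign of the control change in 71.3% and of the isoniazid change in 69.7%, with Pearson correlations of 0.46 and 0.42 across genes.

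The difference between the permethrin and the control change was tested directly, and no gene passed in limma (353 unadjusted, 2.71%). None passed against isoniazid either (311 unadjusted, 2.39%). For the risen genes the difference from control had a median of 0.09 and for the fallen ones -0.07, with all genes at 0.01. The smallest p-values against control were those of Dubr (1.62), Pth2 (1.75) and Adamts5 (0.55). For each of these 3 the larger change was in control lungs, at -1.32, -1.24 and -0.64. The absence of calls does not show equal changes: the difference for Cdh5 was -0.18 and that for Adamts10 -0.01.

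Control lungs gave 15 genes of their own, 0.115% of those tested, 14 of them lower (1810 or 13.9% unadjusted). The leading genes of the control change included the cardiac genes Tbx20 (-1.91), Ldb3 (-1.75) and Myh6 (-1.64), and the 31 cardiac genes had a median of -1.32 in control and -0.28 in permethrin lungs. Without 1 control lung the count was 0 for 6 of 10 lungs (7-day replicates 1 and 2, 14-day replicates 2, 3, 4 and 5). It was 10, 5 and 38 without 7-day replicate 3, 4 or 5 and 92 without 14-day replicate 1. The mean log2 signal of the cardiac list on permethrin arrays ran from 7.41 to 8.38 at 7 days and from 6.40 to 8.79 at 14 days, and its part in the results was not tested. With cardiac, liver and fat signals as covariates 503 genes passed in permethrin lungs, 180 of them among the 181. Isoniazid lungs gave 1 gene, 0.00768% (1484 or 11.4% unadjusted).

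**Figure D2:**
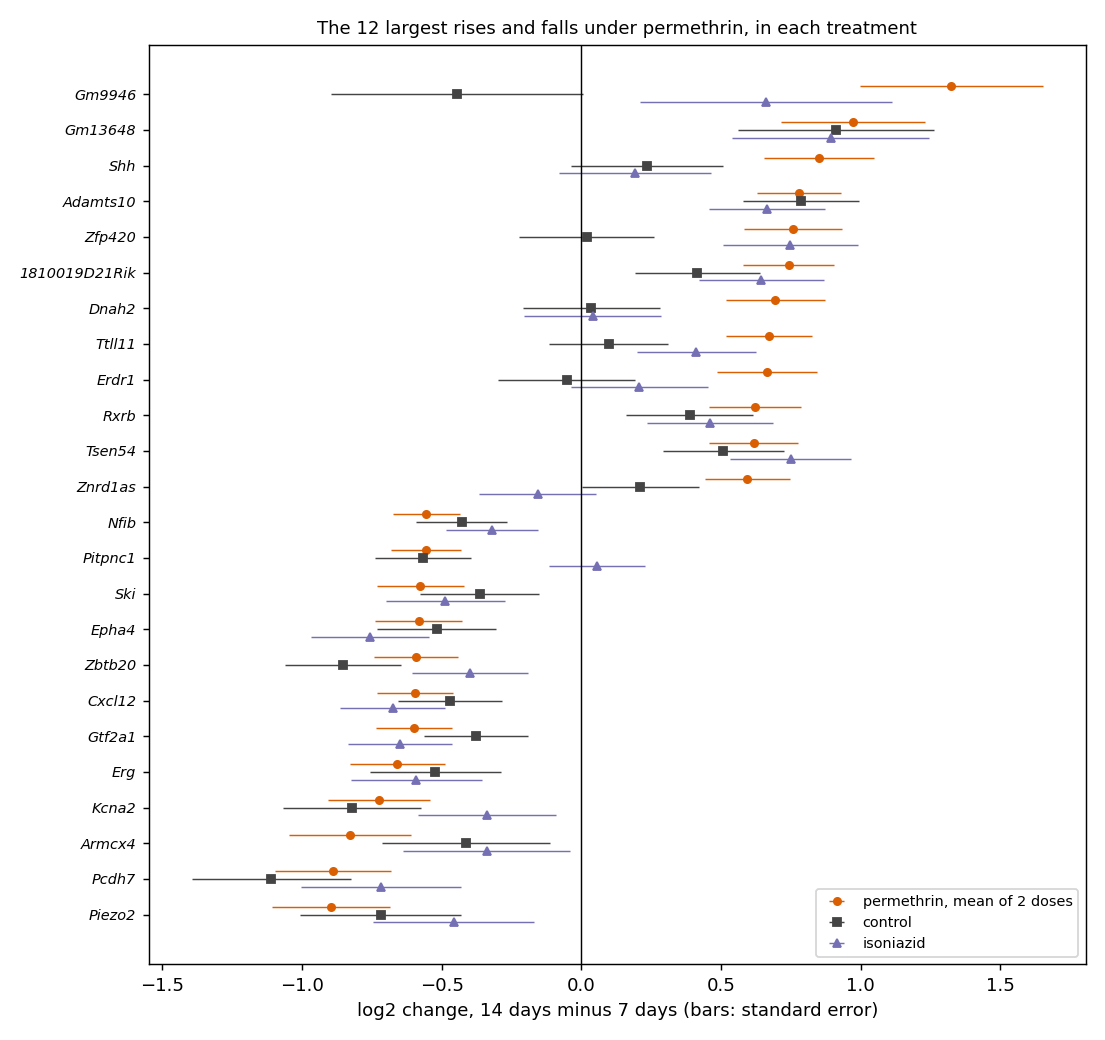
Log2 change from 7 to 14 days (horizontal axis, bars show standard errors) of the 12 largest rises and 12 largest falls under permethrin (vertical axis), in permethrin, control and isoniazid lungs. Adamts10 rose by 0.78 with permethrin beside 0.79 in control, and Gm9946 by 1.33 beside -0.45. In isoniazid lungs the mean of Gm9946 was also higher at 14 days.

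The 181 genes differed in gene span, the distance from a gene's start to its end in the GRCm38.p6 RefSeq annotation. The risen genes had a median span of 10.8 kb and the fallen ones 81.0 kb, against 23.6 kb for all genes. Of the fallen genes 86.7% were longer than the median gene, and of the risen ones 17.5%. The pattern ran over all genes: the median change in permethrin lungs fell from 0.11 in the shortest of 10 equal groups to -0.09 in the longest. The Spearman correlation of span with change across genes was -0.33 for permethrin, -0.34 for control and -0.23 for isoniazid, and it was 0.07 for the permethrin change minus the control change. Without the 7 arrays of high Gapdh ratio it was -0.29 in permethrin and -0.22 in control lungs.

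**Figure D3:**
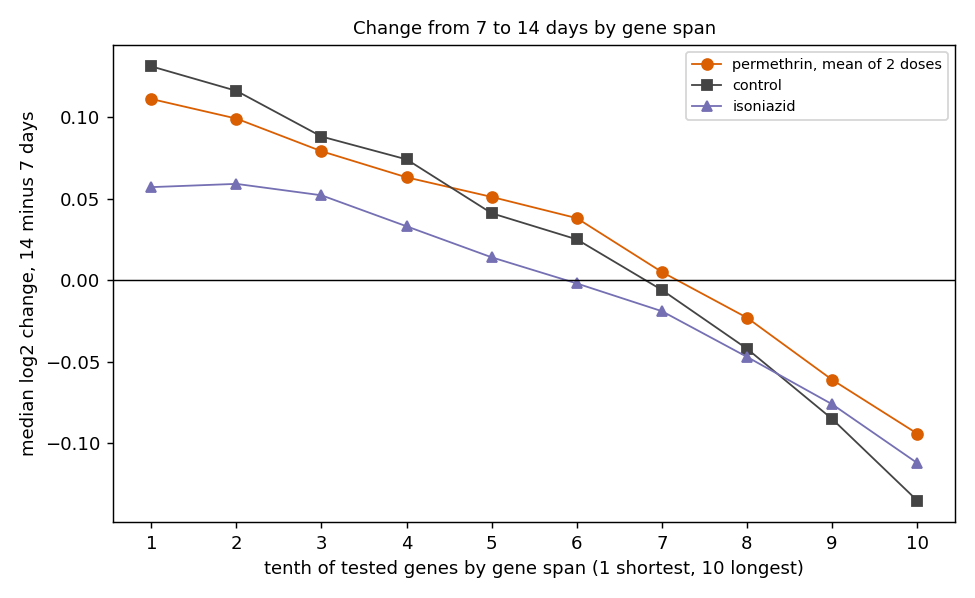
Median log2 change from 7 to 14 days (vertical axis) in 10 equal groups of the tested genes ordered by gene span (horizontal axis), for permethrin, control and isoniazid lungs. All 3 lines end lower for the longest genes than they start for the shortest, for permethrin from 0.11 to -0.09.

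In permethrin lungs the exact tests of the Gapdh and Actb ratios between the times did not pass 0.05 after adjustment, which does not show equal ratios. The Gapdh 3'/5' ratio was uneven among the 14-day lungs, and all 7 arrays above 0.7 were at 14 days. In permethrin lungs its mean was 0.59 (SD 0.61, n = 9) at 14 days and 0.23 (SD 0.27, n = 10) at 7 days, a difference of 0.36 (two-sided exact permutation p = 0.115, 0.115 adjusted over 2 ratios). For Actb the difference was 0.28 (exact permutation p = 0.0431, 0.0863 adjusted). The mean signal of the risen genes minus that of the fallen genes, which the same arrays chose, ran from -1.31 to -1.13 at 7 days and from -0.78 to -0.15 at 14 days. That separation in permethrin lungs was fixed by the choice of genes. Control lungs, which did not choose them, ran from -1.31 to -1.01 at 7 days and from -0.81 to -0.16 at 14 days. Without the 7 arrays of high ratio 922 genes passed in permethrin lungs, 149 of them among the 181.

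**Figure D4:**
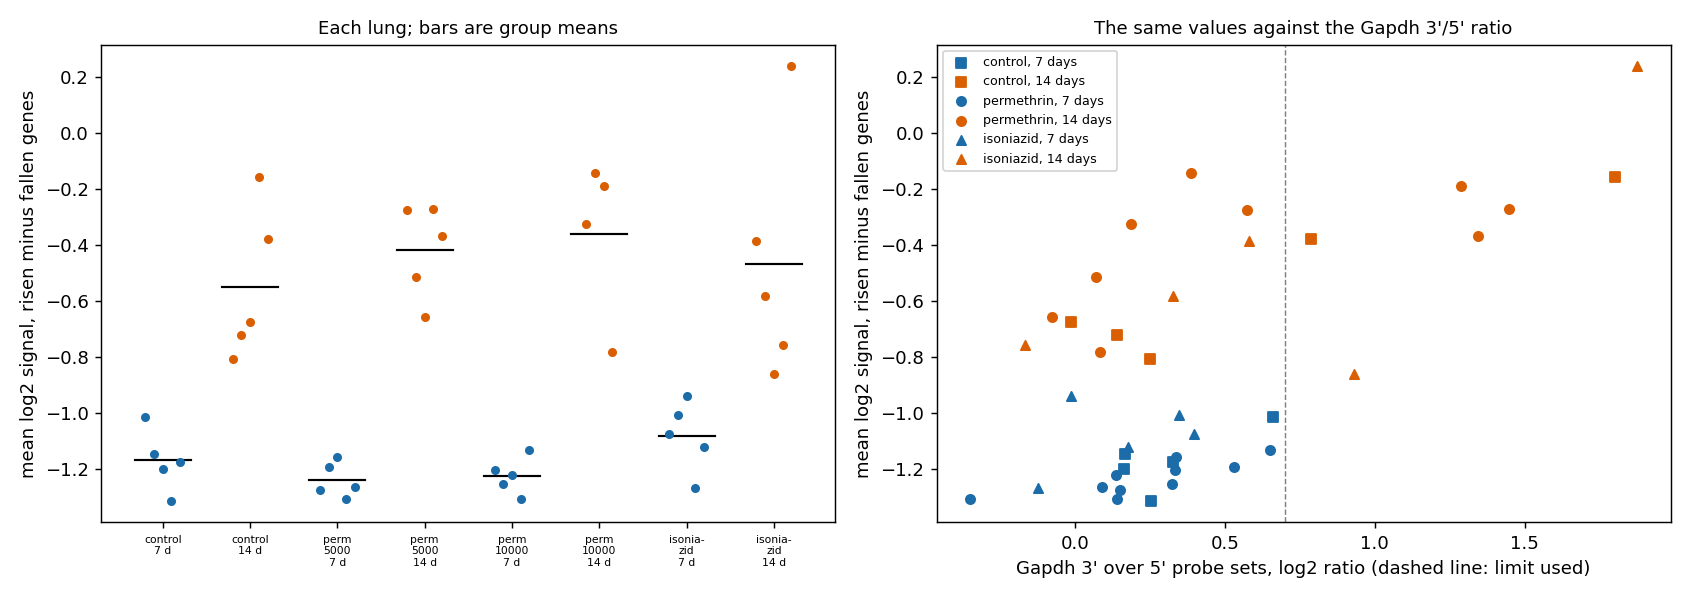
Left, the mean log2 signal of the 97 risen minus that of the 84 fallen genes in every lung (vertical axis) by group, with bars at group means; right, the same values against the Gapdh 3'/5' log2 ratio. Control lungs lie between -1.31 and -1.01 at 7 days and between -0.81 and -0.16 at 14 days; the permethrin values were used to choose these genes, which fixes their separation.

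The promoters of the risen genes are shown because a short motif of ETS-family factors was found in a larger share of them than of the fallen genes. A family of proteins that includes Elk4 and Ets1 binds such sites, often close to the start of housekeeping genes. The motif CCGGAAG, searched on both strands in the 250 bases before the start, was in 21 of 81 risen genes with a promoter in the RefSeq table (25.9%) and in 5 of 62 fallen ones (8.06%). It was in 13.1% of the promoters of tested genes and 7.05% of all promoters. Of 9 motifs searched, the CCAAT box CCAAT was in 40.7% of risen, 22.6% of fallen and 35.7% of tested genes, and the GC box GGGCGG in 58.0%, 61.3% and 57.8%. The E-box CACGTG was in 9.88%, 8.06% and 8.34%, the TATA box TATAAA in 6.17%, 4.84% and 6.80%, and the antioxidant core TGACNNNGC in 11.1%, 16.1% and 12.0%. The GATA motif AGATAA was in 3.70%, 3.23% and 5.94%, the NRF1 motif in 1.23%, 0% and 1.54%, and the YY1 motif in 0%, 0% and 0.439%. The motifs were searched after the calls were known, and a match is a description of letters. The risen genes Rxrb and Farsa and the fallen gene Gtf2a1 are printed from GRCm38.p6, 5′ to 3′ on the gene's strand, with the motif or its reverse complement in capitals. Rxrb lies at chr17:34031562-34031811 (+ strand), the aminoacyl-tRNA synthetase gene Farsa at chr8:84856736-84856985 (+) and Gtf2a1 at chr12:91590488-91590737 (- strand).
Rxrb: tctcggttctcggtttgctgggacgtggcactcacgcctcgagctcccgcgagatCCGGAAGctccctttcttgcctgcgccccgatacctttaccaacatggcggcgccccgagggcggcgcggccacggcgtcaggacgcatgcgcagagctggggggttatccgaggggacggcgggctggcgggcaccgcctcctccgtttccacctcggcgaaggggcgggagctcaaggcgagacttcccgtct
Farsa: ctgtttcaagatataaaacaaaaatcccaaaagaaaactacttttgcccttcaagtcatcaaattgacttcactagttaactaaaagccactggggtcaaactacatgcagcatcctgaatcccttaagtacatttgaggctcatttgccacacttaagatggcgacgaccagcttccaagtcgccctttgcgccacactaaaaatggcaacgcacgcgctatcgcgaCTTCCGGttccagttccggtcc
Gtf2a1: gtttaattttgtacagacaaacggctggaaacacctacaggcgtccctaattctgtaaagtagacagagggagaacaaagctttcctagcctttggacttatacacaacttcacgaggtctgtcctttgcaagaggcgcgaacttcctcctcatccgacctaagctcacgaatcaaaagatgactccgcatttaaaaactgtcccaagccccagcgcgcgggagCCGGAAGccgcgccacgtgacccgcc
Farsa rose by 0.49 (SE 0.13, adjusted p = 0.0494), and its change was 0.42 in control and 0.50 in isoniazid lungs. The motif lies 195 bases before the start in Rxrb, 22 in Farsa and 26 in Gtf2a1. Elk4 and Ets1, named after their values were seen, fell by 0.48 (SE 0.13) and 0.46 (SE 0.11), beside control changes of -0.62 and -0.46. The ETS family was not examined as a list, and any link between these falls and the motif was not tested.

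The detoxifying enzymes that respond to permethrin did not change past the threshold between 7 and 14 days. Gsta2, a glutathione transferase, had log2 signals of 8.80 to 10.34 at 7 days and 8.78 to 9.98 at 14 days, a change of -0.14 with a 95% interval from -0.45 to 0.18. Control lungs lay between 7.04 and 7.97 over both times. The intervals were -0.47 to 0.37 for the aldehyde dehydrogenase Aldh3a1, -0.49 to 0.35 for the carboxylesterase Ces1g and -0.29 to 0.39 for the quinone reductase Nqo1. They were narrower for the thiol enzymes Srxn1 (-0.15 to 0.26) and Txnrd1 (-0.20 to 0.21), each by its brightest probe set. Dimmer probe sets past the filter changed by -0.442, -0.075 and -0.237 for Srxn1 and by -0.169 for Txnrd1, with SEs from 0.222 to 0.404. Changes of any size within these intervals remain compatible with the values of these lungs, so the lack of a call does not show equal levels.

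Gpx2, a glutathione peroxidase, changed by 0.26 (SE 0.17), the glutamate-cysteine ligase subunit Gclc by -0.20 (SE 0.19) and the biliverdin reductase Blvrb by 0.12 (SE 0.17). The carbonyl reductase Cbr3, the epoxide hydrolase Ephx1, the efflux pump Abcc3, the glutathione transferase Gstm1 and the peroxisomal oxidase Acox2 had changes between -0.09 and 0.05. Of 31 NRF2 and glutathione genes none passed, the median was 0.02 and 1 was higher and 1 lower at an unadjusted p under 0.05. Of 14 CAR and PXR targets, genes of nuclear receptors for foreign compounds, none passed and the median was 0.03.

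Cyp1a1, a P450 under the aryl hydrocarbon receptor, changed by -0.77 (SE 0.27, adjusted p = 0.12), with -0.09 for 5000 ppm and -1.44 for 10000 ppm. The 14-day lungs of the higher dose were at 2.89, 3.93, 1.97 and 3.97 and its 7-day lungs between 4.03 and 5.22. How many of all genes separate in this way at 1 dose was not counted, so no weight is put on that separation. The control change was -0.75, and signals near 2 to 4 are dim.

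**Figure D5:**
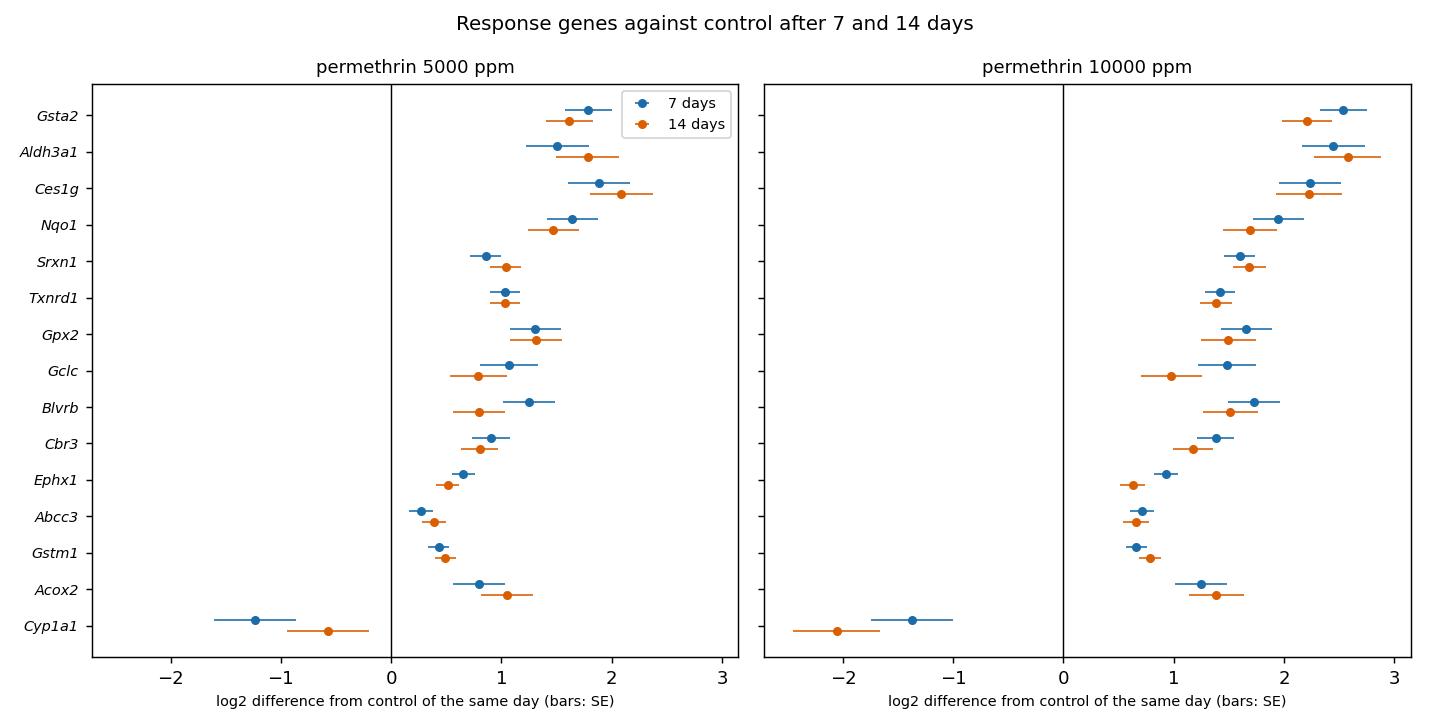
Log2 difference from the control lungs of the same day (horizontal axis, bars show standard errors) of 15 response genes (vertical axis) after 7 and 14 days, at 5000 ppm (left) and 10000 ppm (right). At 10000 ppm Gsta2 stood at 2.54 after 7 and 2.21 after 14 days and Aldh3a1 at 2.45 and 2.58; both times share no lungs, while the doses share their controls.

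Of 45 gene lists, 5 held a gene past the threshold in permethrin lungs, and 40 held none. In all, 6 of the 690 genes on these lists passed, against 1.39% of all genes, so that passing genes were no more frequent on the lists than among all genes. The clock genes, whose level follows the time of day, did not pass (0 of 6 activators and 0 of 13 repressors and outputs in limma). They spread widely within a group: Nr1d1 ran from 2.48 to 7.49 at 7 days and from 2.41 to 6.51 at 14 days, and Dbp changed by -0.65 (SE 0.50). The neutrophil list of 13 genes had a median change of 0.45 in permethrin, 0.38 in control and -0.35 in isoniazid lungs, with none past the threshold. Heat shock and folding genes had a median of 0.19, with 9 of 24 higher at an unadjusted p under 0.05 (10.8% of all genes) and none past the threshold, beside medians of 0.14 in control and 0.03 in isoniazid lungs. The 17 lung cytokines and chemokines had a median of 0.22, with Cxcl12 the 1 past the threshold.

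The alveolar lists had medians close to that of all genes (0.03). The 18 alveolar type 2 genes had a median of 0.02 and the 16 alveolar type 1 genes 0.00, and the 16 cytosolic ribosomal protein genes were also at 0.00. With the deposited scaling those medians were 0.21, 0.20 and 0.34, so the direction of these abundant genes rests on the scaling. Of 34 cell cycle genes none passed, and Mki67 changed by -0.11 (SE 0.19) and Top2a by -0.24 (SE 0.16). The cilia regulator Foxj1 changed by 0.56 (SE 0.21, adjusted p = 0.149), from a median of 6.78 to 7.63, beside 0.46 in control lungs.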

How the data were processed

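The deposited values are MAS5 signal intensities per probe set, per the submitters' processing notes, and the deposited intensities of every array have a trimmed mean of 100. Version and date of scanning are not given in the sources used here. Here the intensities were taken to log2 and quantile normalized. Each gene is its probe set of highest mean, the upper 60% of probe sets were kept (mean log2 signal of 3.43), and 8 group means were fitted to all 39 arrays with limma 3.58.1 in R 4.3.3 (the data.table package, version 1.17.8; moderated variances with a trend). P-values are two-sided, adjusted by Benjamini-Hochberg over 13020 genes. The permethrin change is the mean of its change at both doses. Probe sets were named from the platform annotation, 34945 with 1 gene symbol, 932 with several and 9224 with none. Calling was tested on simulated data. Members, lists and tests were chosen with earlier results of these data known. Named genes are the 12 largest rises and falls past the threshold with 1 sign at both doses, up to 4 called members of each list, 5 leading genes of each other comparison, and a set list of response, clock, lung and proliferation genes; Elk4, Ets1, Farsa, Arrdc1 and Lrrc58 were named after their values were seen. Replicate numbers were not treated as pairs in the fit, since the labels name no pairing. The mean correlation was 0.045 for same-numbered permethrin lungs and -0.0107 for differently numbered ones.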

Additional observations from a re-analysis of the deposited data

Results flagged for a closer look

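Of 364 values of a named quantity in a permethrin group, 21 held a lung far from the others of its group by Dixon's gap, and chance alone gives about 1 in 20. Replicate 3 of 10000 ppm at 14 days, 1 of the 7 arrays of high Gapdh ratio, held 5 of them: Shh at 7.95, Dpp9 at 7.81, Fmod at 5.54, Septin10 at 7.98 and Gstm1 at 11.05. In the same group replicate 2 stood apart for Znrd1as (5.84) and replicate 4 for Cdh5 (11.03).

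At 5000 ppm for 14 days, replicate 5 was low for Dnah2 (5.14), and replicate 3 was low for Cbr3 (8.16) and high for Ciart (6.47). At 10000 ppm for 7 days, replicate 4 was low for Zfp420 (2.75) and Pitpnc1 (8.32), replicate 3 for Phlda3 (7.06), replicate 5 for H2-M10.1 (1.80) and replicate 1 for Dbp (5.14), while replicate 1 was high for Adamts5 (7.00). At 5000 ppm for 7 days, replicate 5 was low for Gm13648 (3.13) and Fmod (4.07), replicate 2 was high for Erdr1 (10.14) and low for Nr1d1 (2.48), and replicate 4 was high for Zmym4 (6.91). All are log2 signals.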

How the results depend on the processing

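The count of 181 genes was 428 with the deposited scaling, 0 with each array centred on its median, 90 with no filter on dim probe sets, 403 with only the permethrin arrays, 296 with the replicate block, 1083 with array weights, 38 with the Gapdh ratio as a covariate, 922 without the 7 arrays of high ratio and 503 with tissue covariates, and 5 to 523 with 1 lung left out. Other settings left the count closer to 181: 183 with a pseudocount of 16, 254 with the upper 40% of probe sets, 149 with every probe set and 124 without the variance trend. Both of the next settings were chosen after seeing the data: centring on the median of the genes tested gave 444, and leaving out replicates 2 and 3 of 10000 ppm at 14 days together gave 1. Why scaling moved the count was not tested. With array weights, without the 7 arrays and with tissue covariates 5000 ppm gave 18, 14 and 6 genes. With weights, without the 7 arrays and without both replicates 10000 ppm gave 100, 8 and 2, and 0 to 33 with 1 lung left out. The control count of 15 was 0 with median centring and with every probe set, 74 with the replicate block, 278 with weights, 4 without the 7 arrays, 145 with tissue covariates and 42 without both permethrin replicates, and 0 to 92 with 1 lung left out. The permethrin and control changes differed in 0 or 1 gene with 1 lung left out. Ager had a log2 change of 0.52 (adjusted p = 0.00211) with the deposited scaling and 0.51 (adjusted p = 0.00354) centred on the genes tested, against -0.01 (not past the threshold). Of the settings of named genes in limma, 2480 kept their side of the threshold, 449 lost and 14 gained a call. The 2480 include settings in which an uncalled gene changed sign, such as Per1, which ran from -0.251 to 0.258. Dim probe sets limit the largest rises.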
